A study of Mus musculus with 4 samples.

Results

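Small nucleolar RNA (snoRNA) host genes are transcribed as spliced RNAs whose introns are processed into snoRNAs. The 8 noncoding hosts described here, Gas5, Snhg1, Snhg3, Snhg5, Snhg6, Snhg8, Snhg12 and Zfas1, were chosen by name, as hosts without a long coding frame that ribosomes bind, out of a deposited table of 14984 genes. Of these 8 genes, 7 had a row, 6 of them under their own symbol and Zfas1 under its older RefSeq name 1500012F01Rik. No row carried the symbol Snhg1, which was not analysed here beyond its genomic neighbourhood. Of the 7 rows, 6 passed the filter on low counts, and Snhg3 did not.

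The libraries were ribosome footprints, the RNA fragments that ribosomes protect from nuclease, from whole testes of mice at day 10. The 2 Eif5 cKO libraries came from a cross of Eif5 fl/fl with Stra8-Cre mice, in which Eif5 is deleted in germ cells by Stra8-Cre, a recombinase that acts from the spermatogonial stage. The 2 control libraries were labelled only as controls, and their genotype is not given in the labels. Eif5 encodes the initiation factor that promotes GTP hydrolysis in the scanning ribosome, and somatic cells of the testis keep it in this model. The labels do not state that replicate libraries were made from different mice. The p-values therefore rest on the spread between these 4 libraries alone, and that spread may be technical. The limma fits used here pool that spread largely over genes, so a given SE or interval is not that of the gene's own libraries.

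A spliced host RNA is exported to the cytoplasm, where ribosomes translate its short open reading frames. Their early stop codons make several hosts, Gas5 the classic case, substrates of nonsense-mediated decay, so that blocking translation or decay raises the RNA. Many hosts also belong to the 5′ terminal oligopyrimidine (5′ TOP) class, whose RNAs start with a C followed by a run of pyrimidines and which includes the ribosomal protein mRNAs. Ribosome footprints on such a host depend both on how much RNA is present and on how ribosomes load onto it, and RNA libraries were not analysed here.

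The annotated 5′ ends are shown because this start is the sequence that the class shares. RefSeq promoter entries (GRCm38.p6) matched 7 of the 8 hosts, all but Snhg6, with 8 entries since Gas5 has 2 annotated starts. A tract was defined as a C followed by at least 4 bases that are each C or T, on the gene's strand, beginning within 10 bases of the annotated start. It was found in 5 of the 8 host entries, against 30.7% of all 32851 entries, 30.1% of entries of long noncoding RNA genes and 33 of 60 entries of ribosomal protein genes. The windows of the hosts that could be tested run from 25 bases before the start to 25 bases from it on, 5′ to 3′, with the longest such tract in capitals. They lie at chr1:161035141-161035190 (plus strand, the second start of Gas5), chr9:88522873-88522922 (minus strand, Snhg5), chr3:123508312-123508361 (minus strand, Snhg8), chr4:132308653-132308702 (plus strand, Snhg12) and chr2:167062909-167062958 (plus strand, Zfas1).
Gas5: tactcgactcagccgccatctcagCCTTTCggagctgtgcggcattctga
Snhg5: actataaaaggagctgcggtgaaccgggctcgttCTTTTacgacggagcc
Snhg8: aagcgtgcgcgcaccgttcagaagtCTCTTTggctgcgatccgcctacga
Snhg12: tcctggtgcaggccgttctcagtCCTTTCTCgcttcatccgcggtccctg
Zfas1: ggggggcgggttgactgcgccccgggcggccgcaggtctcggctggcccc
The tract began exactly at the annotated first base in Snhg8, 1 base before it in Gas5 and 2 bases before it in Snhg12, where it was 8 bases long. In Snhg5 it began 9 bases further on, and neither the Zfas1 window nor that of the first Gas5 start, which is not shown, held one. A match describes these letters only and does not show where transcription began in these testes.

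Depth was 2296938 and 2782527 recovered reads in Eif5 cKO libraries 1 and 2, and 2934609 and 2225964 in control libraries 1 and 2. Eif5 had values of 173 and 266 in Eif5 cKO libraries, against 365 and 304 in controls (log2 fold change -0.63, SE 0.25; limma adjusted p = 0.319). All 15 Sertoli cell markers and all 20 meiotic germ cell markers had a row, which is a weak check of the tissue label. The smallest total of any row was 10 reads. Of 17 tested meiotic markers, 11 fell in Eif5 cKO testes by limma, against 0.604% of all 12095 genes tested. The summed value of all 20 was 1508 and 1692 in Eif5 cKO libraries, against 4382 and 4121 in controls. The summed value of the Sertoli markers was 114334 and 82415 in Eif5 cKO libraries, against 60035 and 83050 in controls, and the groups overlapped. In footprints of bulk tissue, fewer cells of a type, less RNA per cell and fewer ribosomes per RNA cannot be told apart.

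Reads on the noncoding hosts were few in every library, and no tested host was called different between Eif5 cKO and control testes. Whether these reads were ribosome footprints was not tested. limma called 0 of the 6 tested hosts at an adjusted p under 0.05, against 0.678% of the 12095 genes tested, and adjusted p ranged from 0.800 to 0.998. At an unadjusted p under 0.05 the count was also 0 of 6 hosts, against 10.6% of all genes tested. For so short a list, both counts are near the background. On the recovered reads, edgeR, DESeq2 and limma-voom likewise called 0 hosts, with 0 at an unadjusted p under 0.05 in each. DESeq2 gave no adjusted p for Snhg6, Snhg12 and Zfas1, so it could not call these hosts. The groups did not overlap for 1 of the 6 hosts, Zfas1, against 40.8% of all genes tested. The median log2 fold change of the 6 hosts was 0.14, against 0.003 over all genes tested.

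All 7 rows together held 233 and 272 reads in Eif5 cKO libraries, against 242 and 289 in controls. As a share of all recovered reads, in CPM, this was 101 (95% Clopper-Pearson interval 88.8 to 115) and 97.8 (86.5 to 110) in Eif5 cKO libraries, against 82.5 (72.4 to 93.5) and 130 (115 to 146) in controls. These intervals cover counting error only. The Eif5 cKO libraries lay between the control libraries, whose own intervals did not meet. In deposited values, which are reads divided by a size factor of the library, the sum was 254 ± 14.6 in Eif5 cKO and 265 ± 94.9 in control testes (SD, n = 2 each). The log2 ratio was -0.01 (two-sided exact permutation p = 1.0), in a design of 2 against 2 that cannot give a p below 0.333.

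**Figure D1:**
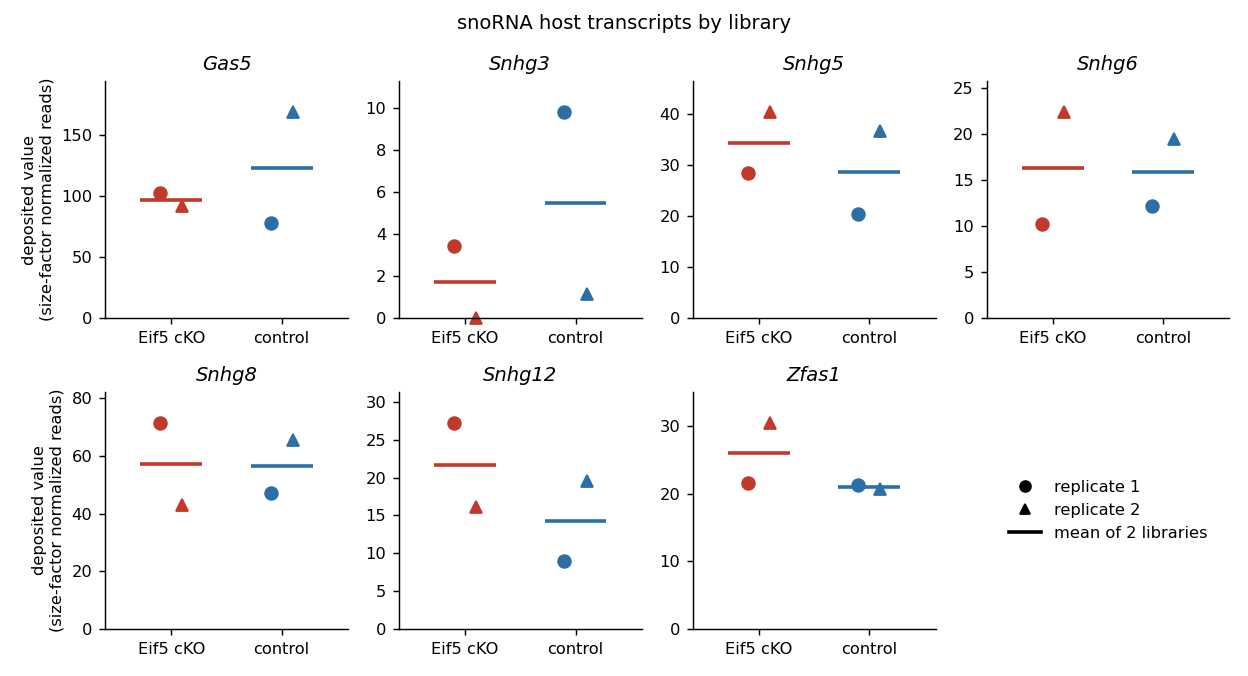
Deposited value (reads divided by the library's size factor) of each of the 7 host rows, by group, with circles for replicate 1, triangles for replicate 2 and a bar at the mean. The 2 groups overlap for every host but Zfas1, and each panel has its own axis from 0.

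Gas5, named for its accumulation in growth-arrested cells, held the most reads of the hosts, with 434 of the 1036 host reads (41.9%). The gene lies on chromosome 1 from 161034601 to 161038539 (GRCm38), and RefSeq places 8 snoRNA genes inside it. It held 90 and 102 reads in Eif5 cKO libraries, against 95 and 147 in controls, or deposited values of 102 and 91.5 against 77.5 and 169. Control replicate 2 was the highest library and control replicate 1 the lowest, with both Eif5 cKO libraries in between. The mean value was 96.9 ± 7.59 in Eif5 cKO and 123 ± 64.5 in control testes (SD, n = 2 each). Gas5 thus had a log2 fold change of -0.24 with SE 0.32 (95% interval -0.90 to 0.42; limma adjusted p = 0.849). Its direction rested on single controls: without control replicate 2 the log2 fold change was 0.32, and without control replicate 1 it was -0.80, with limma adjusted p-values of 0.935 and 0.802. As a fold, the interval of the full comparison spans 0.537 to 1.33.

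Snhg8, which carries the H/ACA snoRNA gene Snora24, had the narrowest interval after Gas5. It lies on chromosome 3 from 123507552 to 123508336. Its values were 71.6 and 43.1 in Eif5 cKO libraries, against 47.3 and 65.4 in controls. The Eif5 cKO libraries were the highest and the lowest, with both controls between them. Its log2 fold change was -0.003 (SE 0.39, 95% interval -0.79 to 0.79; limma adjusted p = 0.998). Without Eif5 cKO replicate 2 it was 0.36 and without control replicate 2 it was 0.23, so that its sign was not settled.

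Snhg5, the host of box C/D snoRNAs of the U50 class, lies on chromosome 9 from 88521052 to 88522897. Its values were 28.4 and 40.4 in Eif5 cKO libraries, against 20.4 and 36.7 in controls. Each group held a low replicate 1 and a high replicate 2, and the groups overlapped. Its log2 fold change came to 0.30 (SE 0.50, 95% interval -0.72 to 1.32; limma adjusted p = 0.884), and -0.11 without control replicate 1.

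Snhg12 lies on chromosome 4 from 132308678 to 132311024 and has 4 snoRNA genes inside it, Snora16a, Snora44, Snora61 and Snord99. Its values were 27.3 and 16.1 in Eif5 cKO libraries, against 8.98 and 19.5 in controls, from 24, 18, 11 and 17 reads. Eif5 cKO replicate 1 was highest and control replicate 1 lowest, while the replicate 2 libraries lay close together. Among the 6 tested hosts it had the largest log2 fold change, 0.62 (SE 0.68, 95% interval -0.75 to 1.99; limma adjusted p = 0.800). It was 0.10 without control replicate 1 and 1.14 without control replicate 2.

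Zfas1, which is transcribed opposite the 5′ end of Znfx1 and hosts Snord12, lies on chromosome 2 from 167062934 to 167065862. Its values were 21.6 and 30.5 in Eif5 cKO libraries, against 21.2 and 20.7 in controls. Both Eif5 cKO libraries lay above both controls, though Eif5 cKO replicate 1 exceeded control replicate 1 by less than the value of 1 read. Its log2 fold change came to 0.28 (SE 0.56, 95% interval -0.86 to 1.42; limma adjusted p = 0.908), and -0.16 when libraries were scaled on the Sertoli markers.

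Snhg6, the host of Snord87, lies on chromosome 1 from 9942025 to 9944118. Its values were 10.2 and 22.4 in Eif5 cKO libraries, against 12.2 and 19.5 in controls, from 9, 25, 15 and 17 reads. The Eif5 cKO libraries enclosed the controls. Its log2 fold change came to -0.02 (SE 0.71, 95% interval -1.45 to 1.40; limma adjusted p = 0.995). As a fold, the interval spans 0.366 to 2.65 before adjustment over all genes, so the direction of any difference was not settled at this depth. The smallest difference that could have been detected was not computed.

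Snhg3, the host of Snora73a and Snora73b on chromosome 4 from 132351933 to 132353686, had 3 and 0 reads in Eif5 cKO libraries, against 12 and 1 in controls. The 16 reads were too few for a test, and the 0 reads in Eif5 cKO replicate 2 allow up to 1.08 CPM when the limit is set at 3 reads (the upper end of the Clopper-Pearson interval is 1.33 CPM). Of the 16 reads, 12 came from control replicate 1, so the control libraries differed more from each other than either Eif5 cKO library did from control replicate 2.

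**Figure D2:**
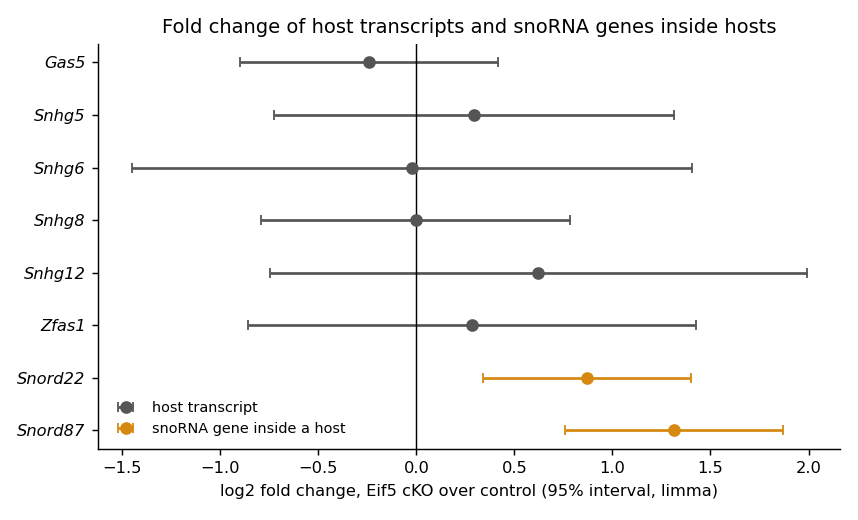
log2 fold change of Eif5 cKO over control with its 95% interval from limma, for the 6 tested hosts (grey) and the 2 snoRNA genes inside hosts that had a row (orange). Every host interval includes 0, and those of Snord22 and Snord87 lie above it before adjustment over all genes.

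The control libraries differed from each other across most hosts. Control replicate 2 was above control replicate 1 for 5 of the 6 tested hosts, Zfas1 being the exception. The median difference, replicate 2 minus replicate 1, was 0.72 on the log2 scale in controls, against -0.002 over all genes tested. Between the Eif5 cKO libraries it was 0.16, against 0.003 over all genes. The averaged profile of the 6 hosts, each centred on its own mean, was 0.04 and 0.11 in Eif5 cKO libraries, against -0.41 and 0.26 in controls. Of 14 tested Sertoli markers, 13 had a positive log2 fold change and 0 were called by limma (5 at an unadjusted p under 0.05). Control replicate 1 was also the library with the smallest share of Sertoli markers, which took 4.38% and 3.30% of reads in Eif5 cKO libraries, against 2.51% and 3.25% in controls. The part of that difference in the host values was not tested.

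**Figure D3:**
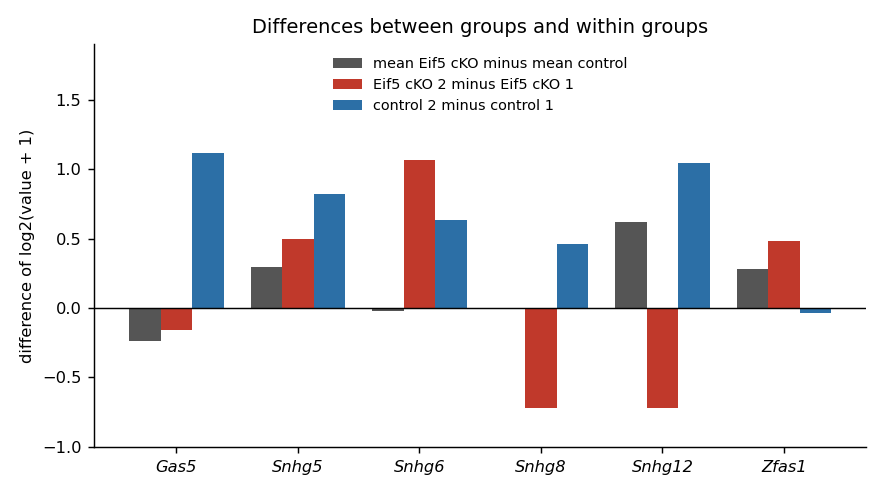
Differences of log2(value + 1) for each tested host: mean Eif5 cKO minus mean control (grey), Eif5 cKO replicate 2 minus 1 (red) and control replicate 2 minus 1 (blue). For each of the 6 hosts at least 1 within-group difference is larger in size than the difference between groups, which is one of means of 2 libraries rather than of single libraries.

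Of the snoRNA genes inside the hosts, 1 was called, Snord87, which rose in Eif5 cKO testes. RefSeq places 29 snoRNA genes inside the 8 host intervals, and 2 of them had a row under their RefSeq symbol, Snord87 and Snord22. Both encode box C/D RNAs, which guide 2′-O-methylation or take part in processing of ribosomal RNA. Mature snoRNAs are protein-bound nuclear RNAs, so their reads need not be ribosome footprints.

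Snord87, on chromosome 1 from 9942470 to 9942543 inside Snhg6, had values of 454 and 235 in Eif5 cKO libraries, against 118 and 145 in controls. Both Eif5 cKO libraries lay above both controls, and the Eif5 cKO libraries differed from each other more than the controls did. On the log2 scale, replicate 2 minus replicate 1 was -0.95 in Eif5 cKO and 0.29 in control libraries. The limma SE and p-value that follow are moderated over genes and do not rest on that spread alone. Snord87 rose 2.49-fold (log2 fold change 1.31, SE 0.27, 95% interval 0.76 to 1.87; limma adjusted p = 0.00826), and genes called higher were 0.0744% of all genes tested. The call was lost without Eif5 cKO replicate 1 (0.84, adjusted p = 0.228), without control replicate 1 (1.17, adjusted p = 0.349), without control replicate 2 (1.46, adjusted p = 0.0618) and with libraries scaled on the Sertoli markers (0.86, adjusted p = 0.495), all in limma.

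Set against its own host in the same library, there were 44.4 and 10.5 Snord87 reads per Snhg6 read in Eif5 cKO libraries, against 9.67 and 7.41 in controls. Both Eif5 cKO ratios were above both control ratios, but that of Eif5 cKO replicate 2 was close to control replicate 1, and the Snhg6 counts under them were 9 to 25 reads. With 2 libraries a group, no permutation of this ratio can pass a threshold of 0.05.

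Snord22, on chromosome 19 from 8725866 to 8725991 inside Snhg1, had values of 282 and 458 in Eif5 cKO libraries, against 158 and 243 in controls. All Eif5 cKO values were above the control values, though the lower Eif5 cKO library and the higher control were close. The log2 fold change of 0.87 (SE 0.26, 95% interval 0.34 to 1.40) did not pass over all genes (limma adjusted p = 0.133), but did without Eif5 cKO replicate 1 (1.22, limma adjusted p = 0.00680). Summed, the 2 snoRNA genes had values of 736 and 693 in Eif5 cKO libraries, against 276 and 388 in controls, a log2 ratio of 1.13 (two-sided exact permutation p = 0.333, the smallest this design can give). The list of all snoRNA genes also took in small Cajal body RNA genes (Scarna symbols). Of its 49 tested genes, 3 rose by limma (Snord87, Snord123 and Snord15a), against 0.0744% of all genes tested, and 0 fell. Snord123 had values of 241 and 139 in Eif5 cKO libraries, against 80.8 and 66.6 in controls (limma adjusted p = 0.0259). Snord15a had values of 615 and 273, against 140 and 242 (limma adjusted p = 0.0422). With libraries scaled on the Sertoli markers, limma called 1 gene of all tested higher, and it was not Snord87. An unadjusted p under 0.05 was reached by 10 of the 49, against 10.6% of all genes. Signs were positive for 37 and negative for 12, against 6081 and 6014 of all genes, and the median log2 fold change was 0.36, against 0.003. Scarna10, singled out after its values were seen because it ran the other way, had values of 28.4 and 30.5 in Eif5 cKO libraries, against 100.4 and 74.6 in controls (log2 fold change -1.52, SE 0.40; limma adjusted p = 0.0580). The summed meiotic markers were lower in both Eif5 cKO libraries than in both controls, while the summed Sertoli markers overlapped between the groups. The summed Leydig cell markers did not overlap, with values of 2965 and 2588 in Eif5 cKO libraries, against 1582 and 2025 in controls. All 7 tested Leydig markers had a positive log2 fold change, and limma called 0 of them. The part of any of these cell types in the snoRNA values was not tested.

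Genes that border or overlap the hosts were examined because reads in shared sequence can be assigned to either gene, and the strand setting of the counting is not given in the sources used here. Of 20 bordering or overlapping genes in RefSeq, 15 had a row, 14 were tested and 0 were called by limma, with 0 at an unadjusted p under 0.05. Their log2 fold changes ran from -1.32 to 0.39, with a median of 0.07. Zbtb37 overlaps Gas5 by 264 bases on the opposite strand. It had values of 49.99 and 59.2 in Eif5 cKO libraries, against 51.4 and 70.0 in controls (log2 fold change -0.14, SE 0.38; limma adjusted p = 0.937).

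Znfx1, a zinc finger helicase gene, overlaps Zfas1 by 82 bases on the opposite strand. Its values were 804 and 509 in Eif5 cKO libraries, against 608 and 466 in controls (log2 fold change 0.26, SE 0.24; limma adjusted p = 0.739). Mcmdc2 overlaps Snhg6 by 1582 bases and held few reads, with values of 0 and 4.49 in Eif5 cKO libraries, against 1.63 and 5.74 in controls. Slc3a2, the heavy chain of amino acid transporters, starts 117 bases from Snhg1 on the opposite strand and held the most reads of these neighbours in every library. Its values were 2406 and 1913 in Eif5 cKO libraries, against 1488 and 2004 in controls, which overlapped (log2 fold change 0.31, SE 0.24; limma adjusted p = 0.696). Trnau1ap, which borders Snhg12 and acts in selenocysteine insertion, had a log2 fold change of -0.22 (SE 0.35), and Rcc1, the nucleotide exchange factor of Ran that borders Snhg3, one of -0.55 (SE 0.34). Neither passed.

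Other noncoding snoRNA hosts were covered by few reads. Of 14 listed, 10 had a row, with 12 to 523 reads in all, and 7 were tested in limma. Of these, 0 were called and 0 had an unadjusted p under 0.05, against 0.678% and 10.6% of all genes, which for so short a list is near the background. The signs were 6 positive and 1 negative, with a median log2 fold change of 0.33. Snhg18 had values of 145 and 136 in Eif5 cKO libraries, against 68.6 and 183 in controls, the same order of libraries as Gas5 (log2 fold change 0.33, SE 0.32; limma adjusted p = 0.773). Snhg15, listed in the file as Gm11974, had values of 17.0 and 21.5 in Eif5 cKO libraries, against 2.45 and 11.5 in controls. Its log2 fold change was 1.62 (SE 0.87; limma adjusted p = 0.524). Snhg20 had a log2 fold change of 1.00 (SE 0.90; limma adjusted p = 0.736). Snhg11 had 0 reads in both Eif5 cKO libraries, against 8 and 4 in controls, too few to be tested.

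Protein-coding snoRNA hosts and 5′ TOP mRNAs had 0 calls in limma, where 0.678% of all genes were called and 10.6% had an unadjusted p under 0.05. None of 16 protein-coding hosts outside the ribosomal proteins was called (0 of 16; 1 at an unadjusted p under 0.05), with a median log2 fold change of -0.06. Eif4a1, the RNA helicase of the cap-binding complex, had values of 22.7 and 33.2 in Eif5 cKO libraries, against 39.2 and 81.5 in controls (-1.02, SE 0.46; limma adjusted p = 0.406). The chaperonin subunit gene Cct6a had a log2 fold change of -0.41 (SE 0.23). Of 67 ribosomal protein genes with a row, 45 were tested and 0 called (4 at an unadjusted p under 0.05), with a median of -0.15. Rps10 (-0.88, SE 0.34) and Rpl26 (-1.21, SE 0.53) had the smallest p-values, and such genes may share reads with pseudogene copies. The other 15 5′ TOP mRNAs, 4 of them also protein-coding hosts, had a median of -0.16 with 0 calls and 2 at an unadjusted p under 0.05. Eif3e, an initiation factor subunit, was among these, with values of 116 and 199 in Eif5 cKO libraries, against 251 and 304 in controls (-0.86, SE 0.27; limma adjusted p = 0.154), and so was Eef1d (-0.47, SE 0.23).

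Of the genes that act on host RNAs and their products, 0 were called by limma, against 0.678% of all genes tested, a count near the background for lists of 18 and 19 genes. At an unadjusted p under 0.05 there was 1 in each list, against 10.6% of all genes. Of 18 nonsense-mediated decay factors, 13 had a negative and 5 a positive sign, with a median log2 fold change of -0.20. The decay factor below that p was Smg1, the kinase of the decay factor Upf1, with values of 169 and 242 in Eif5 cKO libraries, against 309 and 321 in controls (-0.64, SE 0.25; limma adjusted p = 0.312). Upf2, which bridges Upf1 to the exon junction complex, had a log2 fold change of -0.51 (SE 0.31). Of 19 snoRNP proteins and assembly factors, 12 had a negative and 7 a positive sign, with a median of -0.09. Znhit6, an assembly factor of box C/D particles, had values of 178 and 170 in Eif5 cKO libraries, against 268 and 273 in controls (-0.64, SE 0.25; limma adjusted p = 0.311), the single member at an unadjusted p under 0.05. Snu13, which binds the C/D motif, had a log2 fold change of -0.65 (SE 0.39).

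**Figure D4:**
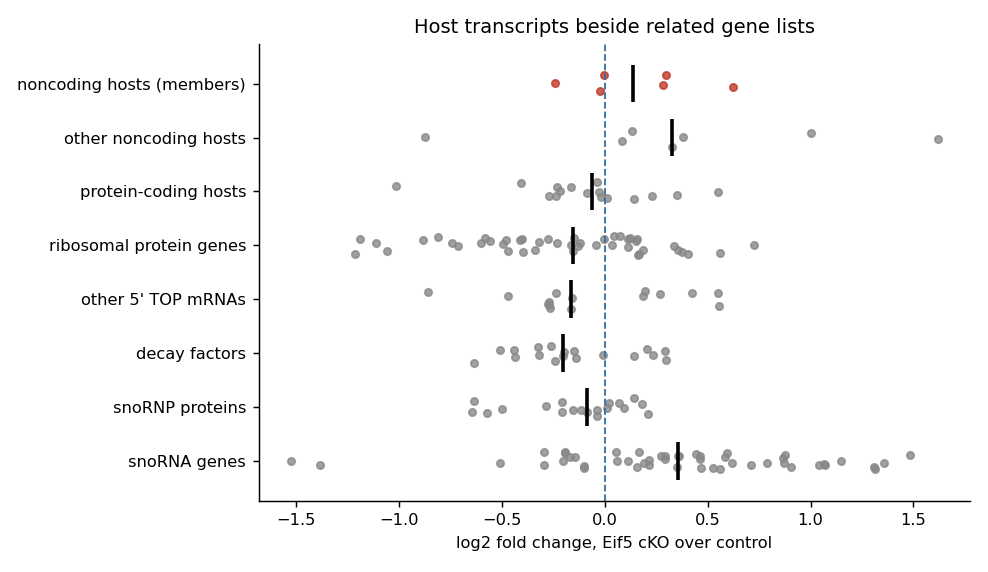
log2 fold change of Eif5 cKO over control for each tested gene of the noncoding hosts (red) and of the related lists (grey), with a black bar at each list's median and a dashed line at the median of all genes tested. The noncoding hosts' median is 0.14, and the lists' medians run from -0.20 for decay factors to 0.36 for snoRNA genes (Scarna genes included).

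Among 5309 other genes with a mean of at least 100 reads, the 3 whose centred log2 values over the 4 libraries lay nearest to the averaged host profile were Selenop, H4c6 and Tlk1. Their Euclidean distances were 0.013, 0.017 and 0.031, against a median of 0.662. Selenop had values of 1103 and 1159 in Eif5 cKO libraries, against 797 and 1271 in controls, low in control replicate 1 like the hosts. With 4 libraries this likeness is a description only, and H4c6, a histone gene, may share reads with near-identical copies.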

How the data were processed

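The deposited table, labelled raw counts by its columns, held a normalized signal: per the file's values, each column is whole reads per gene divided by 1 number, equal to the library's median-of-ratios size factor. Multiplying back gave a whole number for 100% of values (tolerance 1e-06). The submitters' processing notes name Bowtie2, STAR, featureCounts and GRCm38 with no version; for strand and multi-mapping the settings were not stated in them. 0 columns belonged to other samples.

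limma 3.58.1 (R 4.3.3) was fitted with an intensity trend and group as its only term to log2(value + 1), on the genes passing edgeR 4.0.16's filterByExpr (minimum count 10) on recovered reads, which left 12095. Fold changes on this scale are understated for low values. Each gene's variance was moderated toward the trend over all genes, with 2 residual degrees of freedom and a median of 37.0 prior ones. P-values were two-sided and adjusted by Benjamini-Hochberg over all genes tested. The edgeR quasi-likelihood test on recovered reads called 92 genes, against 82 by limma. DESeq2 1.42.0 was another alternative. The fits were tested on simulated data.

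The members and gene lists were chosen with earlier results of these data known. Genes were named by a rule: the 8 hosts, snoRNA genes inside them, bordering genes, the 2 smallest p-values and any calls of each list, and the 3 nearest profiles. snoRNA genes were placed by RefSeq intervals without regard to strand, which the table does not give. Levels were not compared between genes, since exon lengths were not used. Replicate numbers are shared between groups, but the labels do not say that they pair samples, and deviations of same-numbered libraries correlated at -0.05.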

Additional observations from a re-analysis of the deposited data

How the results depend on the processing

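None of the tested hosts was called under any of the 17 alternatives, though DESeq2 gave no adjusted p for Snhg6, Snhg12 and Zfas1. With all libraries kept, the smallest adjusted p of a host was 0.588 (Gas5, limma with Sertoli scaling). Leaving out single libraries moved the count of called genes, 82 in the full comparison, over 10 to 346 (127 and 346 without Eif5 cKO replicates 1 and 2, 10 and 20 without control replicates 1 and 2). The same fits gave a median host log2 fold change of -0.17 to 0.38, a log2 ratio of summed host reads of -0.38 to 0.36, and one of summed Snord87 and Snord22 reads of 0.88 to 1.37. With libraries scaled on the Sertoli markers, the median of all genes moved to -0.45, that of the hosts to -0.30 (0.15 above all genes, against 0.14 in the full comparison), the summed host ratio to -0.47 and the summed snoRNA ratio to 0.67. A filter of 50 reads in 2 libraries kept 2 hosts, with a median of -0.12. The replicate block left the fold changes as they were, changed no host call and gave 100 called genes, with a median host log2 fold change of 0.14. Signs that turned, with no test passed on either side, were those of Gas5 (-0.80 to 0.32 with single libraries left out), Snhg5 (-0.15 with Sertoli scaling, -0.11 to 0.70 with single libraries left out) and Zfas1 (-0.16 with Sertoli scaling). Snhg6 turned to 0.064 and 0.071 in edgeR with TMM and DESeq2 factors, 0.064 in DESeq2 and 0.11 in limma-voom, and ran from -0.55 to 0.51 with single libraries left out. Snhg8 turned to 0.0061 with upper-quartile factors, 0.016 and 0.023 in edgeR with TMM and DESeq2 factors, and 0.028 in DESeq2, and ran from -0.36 to 0.36 with single libraries left out. Beyond the direct effect of leaving out samples or genes, the causes were not tested. Reads were few for all hosts, with a mean per library of 108.5 for Gas5, 56.5 for Snhg8 and under 50 for the others.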
